A study of Mus musculus with 8 samples.

Results

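The immunoglobulin constant genes were followed through whole-genome bisulfite sequencing of mouse B and T lymphocytes. The set held 9 genes of 53843 annotated on the autosomes and X: the 8 heavy chain genes *Ighm*, *Ighd*, *Ighg3*, *Ighg1*, *Ighg2b*, *Ighg2c*, *Ighe* and *Igha* on chromosome 12, and the kappa light chain gene *Igkc* on chromosome 6. They were chosen by name, and each was taken with its gene body and 10 kb to either side (GENCODE M21 annotation, GRCm38). Overlapping stretches were merged into 4 regions. The first question was whether their methylation differed between B cells, which use these genes, and T cells, which do not. The second was whether the depth of reads differed along them.

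All samples came from the spleen of C57BL/6J mice, an inbred strain, of 6 to 8 weeks, with the cells of several animals pooled in a sample. Resting B cells were CD43-, and naive T cells were sorted as live CD4+ CD62Lhi CD44lo CD25- cells after depletion of other lineages. The labels name no mutation and no treatment. The 8 samples formed 4 groups of 2 (B and T cells of each sex), and each group had 1 file, so that B against T rested on 2 files against 2, seen once in each sex. Whether a file merged both samples of its group is not stated. In this assay bisulfite converts unmethylated cytosines, and the methylation level of a region is the percentage of its CpG reads that stayed unconverted. 5-methylcytosine and 5-hydroxymethylcytosine read alike. Where 4 values stand in a row, they are those of females, first B then T, followed by those of males, first B then T.

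The constant genes encode the part of the antibody that fixes its class. In the heavy chain locus they stand in the order of the names above, downstream of the J segments. B cells that have not met antigen splice their rearranged variable exon to *Ighm* or *Ighd* and so carry IgM and IgD on the surface. Earlier in development, V(D)J recombination joins V, D and J segments and deletes or inverts the DNA between those chosen. Upon activation, class switch recombination joins the switch region before *Ighm* to the switch region before another constant gene, so that IgG, IgE or IgA is made. Switch regions are long repeats rich in AGCT. *Igkc* is the constant gene of most mouse light chains, and T cells use the T cell receptor genes in place of all of these.

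Mean depth per autosomal CpG was 14.6 to 17.7 reads in the 4 files, and the autosomal medians were 14, 17, 15 and 16 reads. The labelled cell types were compared with marker genes, by the level within 1 kb of the annotated start. All 8 B cell markers had less methylation in B than in T files in both sexes (median over the markers 10.6% and 13.9% in the female and male B files, 59.7% and 59.4% in T). Of 10 T cell markers, 9 had more in B files (medians 84.8% and 84.8% against 10.5% and 10.3%), and *Cd28* was the exception. Markers of monocytes and granulocytes had medians of 80.8% to 84.5% in all 4 files. Among them *Lyz2* was lower in B (41.5% and 50.7% against 64.1% and 66.7%), and *Mpo* stood at 54.7%, 52.1%, 57.1% and 58.3%. NK cell markers had medians of 78.7% to 85.9%, with *Klrd1* at 42.1%, 27.8%, 25% and 33.3%. Global autosomal levels were 79.5% to 80.7%.

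Sequence from 5 stretches of the loci is shown first, because the results below turn on where CpGs lie in them. All were read from the GRCm38 reference (RefSeq), 5′ to 3′ on the strand of the gene. The first pair shows the switch repeats before *Ighm* (chr12:113424727-113424926, minus strand) and before *Igha* (chr12:113262379-113262578, minus strand), with AGCT in capitals. They hold 33 and 15 copies in 200 bases.

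Ighm switch repeat: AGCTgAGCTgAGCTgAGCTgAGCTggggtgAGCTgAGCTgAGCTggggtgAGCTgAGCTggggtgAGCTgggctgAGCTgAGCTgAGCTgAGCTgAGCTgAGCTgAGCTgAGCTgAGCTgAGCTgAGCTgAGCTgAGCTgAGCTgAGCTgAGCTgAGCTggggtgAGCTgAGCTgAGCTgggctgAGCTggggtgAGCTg

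Igha switch repeat: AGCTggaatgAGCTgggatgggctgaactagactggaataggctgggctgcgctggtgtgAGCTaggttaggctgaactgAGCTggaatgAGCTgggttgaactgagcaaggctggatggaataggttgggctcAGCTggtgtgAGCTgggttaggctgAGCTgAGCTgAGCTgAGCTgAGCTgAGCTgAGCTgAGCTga

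The *Ighm* repeat holds no CpG, so bisulfite sequencing at CpGs says nothing about it, and the *Igha* stretch holds 1. The next 3 stretches of 300 bases have CpGs in capitals. The first (chr12:113428297-113428596, minus strand) contains the *Ighj4* segment, and its 3 CpGs were at 0% in both B files and at 83.1% and 80.0% in the female and male T files. The second (chr12:113425508-113425807, minus strand) lies between the J segments and *Ighm* and was low everywhere, at 0% in both B files and at 5.00% and 3.03% in T. The third (chr6:70724696-70724995, plus strand) lies between the last kappa J segment and *Igkc*, and its 13 CpGs were at 26.1% and 25.2% in the B files and at 93.7% and 95.9% in T.

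Ighj4 stretch: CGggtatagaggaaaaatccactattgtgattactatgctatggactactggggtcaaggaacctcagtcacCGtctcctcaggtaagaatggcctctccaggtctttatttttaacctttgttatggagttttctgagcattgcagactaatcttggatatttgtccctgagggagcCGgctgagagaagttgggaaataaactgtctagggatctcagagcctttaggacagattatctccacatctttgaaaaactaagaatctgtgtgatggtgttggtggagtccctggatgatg

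J to Ighm stretch: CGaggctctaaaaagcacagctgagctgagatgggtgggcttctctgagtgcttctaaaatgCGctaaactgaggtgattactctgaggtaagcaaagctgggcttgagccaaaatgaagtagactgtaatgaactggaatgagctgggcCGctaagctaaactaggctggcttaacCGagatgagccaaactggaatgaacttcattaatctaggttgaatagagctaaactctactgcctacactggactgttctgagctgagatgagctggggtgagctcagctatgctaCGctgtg

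Igkj5 to Igkc stretch: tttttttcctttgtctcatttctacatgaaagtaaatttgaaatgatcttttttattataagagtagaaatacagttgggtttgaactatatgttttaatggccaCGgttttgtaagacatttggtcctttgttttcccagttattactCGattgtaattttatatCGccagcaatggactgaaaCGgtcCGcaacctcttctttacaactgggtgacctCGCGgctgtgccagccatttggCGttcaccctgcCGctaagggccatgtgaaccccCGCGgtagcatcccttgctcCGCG

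B cells had lower methylation than T cells in the 10 kb before *Ighm*, *Ighd* and *Igkc*, and the genes of the switched classes were highly methylated in both. In the 10 kb before the start, 3 of 9 members were called lower in B cells, where 0.148% of 53267 such flanks were called lower and 0.372% higher. The flank of *Ighd* contains the body of *Ighm* and overlaps its flank, so the 3 calls are not of 3 separate stretches. No member body was called, against 0.442% of 45050 bodies called higher in B and 0.218% lower. No flank after the end was called either, against 0.392% of 53281 higher and 0.163% lower. A call needed an adjusted p under 0.05, from a quasi-binomial fit that allowed for sex, and a mean B minus T difference of at least 20 percentage points. Of the bodies, 2 had an unadjusted p under 0.05, both lower in B, and a limma fit called 0 of them. Of the 18 flanks, 12 had an unadjusted p under 0.05, 10 of them lower in B. Neighbouring flanks overlap, so these are not separate stretches, and the share of all bodies or flanks with such a p is not given. The median difference over the 9 members was -4.24 points before the start, -1.19 in the body and -5.47 after the end, beside 0.19, 0.27 and 0.07 points over all genes tested.

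**Figure D1:**
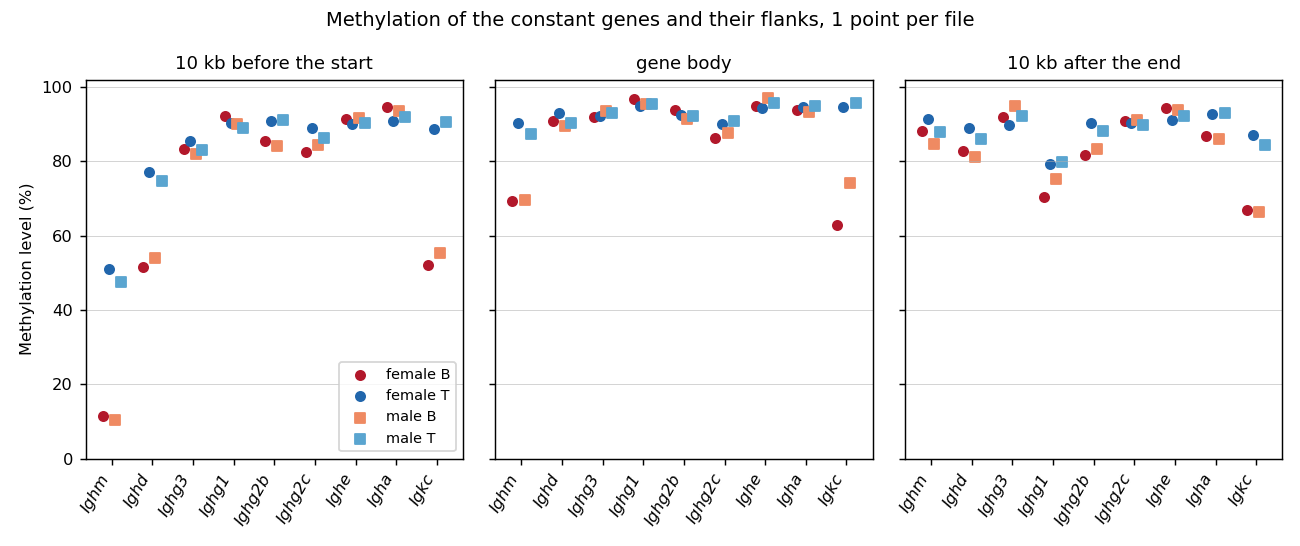
Methylation level (%) of each constant gene in its body and in the 10 kb before its start and after its end, with 1 point for each of the 4 files (red and orange for B, blue for T; circles for female, squares for male). Before the start the B files sit far below the T files at Ighm, Ighd and Igkc (11.5% and 10.5% against 51.0% and 47.5% at Ighm), while all 4 files sit above 80% at Ighg3, Ighg1, Ighg2b, Ighg2c, Ighe and Igha.

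*Ighm* encodes the constant part of IgM, the class that naive B cells carry. Its body (chr12:113418558-113422730, minus strand) was methylated at 69.3%, 90.3%, 69.6% and 87.3%, over 41 CpGs. The B files were close to each other and both below the T files, by 21.0 points in females and 17.7 in males. The mean difference of -19.4 points passed the adjusted p (0.0284) but fell just short of the 20 points required, and with a minimum of 10 reads per CpG it was called at -22.4 points. The adjusted p was lost with any of the 4 files left out (0.0645 to 0.123). In the 10 kb before its start the levels were 11.5%, 51.0%, 10.5% and 47.5%, a mean difference of -38.2 points (adjusted p 0.000878). They rest on the 42 of 65 CpGs listed in every file, since 21 were in both T files and in no B file. The 10 kb after its end differed little, with a mean of -3.24 points (adjusted p 0.353).

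Within *Ighm* the difference was uneven. The first exon had 43.1%, 53.9%, 44.2% and 40.6%, so that the sexes disagreed in sign. Exon 2 had 74.0% and 72.3% in B against 93.7% and 92.9% in T, and exon 4 had 80.9% and 76.5% against 93.6% and 93.6%. The fourth intron stood at 67.4% and 72.8% in B and at 92.7% and 93.4% in T. Exon 5 and exon 6, the pair that codes for the membrane anchor of surface IgM, held 2 and 1 CpGs. Exon 5 had 46.7% and 55.6% in B against 94.3% and 94.4% in T, over 15 to 36 reads a file. Exon 6 had 64.7% and 70.0% against 96.2% and 95%. Of the 41 CpGs of the body, 27 had both B files below both T files, where 12.6% of 18216084 autosomal CpGs did.

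*Ighd* encodes the constant part of IgD, which is spliced from the same primary transcript as IgM. Its body (chr12:113406604-113416324, minus strand) was at 90.9%, 92.9%, 89.5% and 90.4%. The mean difference of -1.46 points did not pass the test (adjusted p 0.796). Its flank before the start was called, at 51.6% and 53.9% in B against 77.2% and 74.8% in T (mean -23.3 points, adjusted p 0.00362), but this flank overlaps *Ighm* and the stretch before it. The interval between the *Ighd* and *Ighm* genes alone had 73.1%, 98.8%, 70.7% and 96.4% over 5 CpGs. Exon 3 went the other way, with 97.1% and 95.8% in B and 75.5% and 71.1% in T over 2 CpGs and 24 to 49 reads a file.

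The genes of the switched classes showed high levels in all 4 files. The bodies of *Ighg3*, *Ighg1*, *Ighg2b*, *Ighe* and *Igha* lay between 91.4% and 97.2%, and their mean differences between -1.19 and 0.97 points, with adjusted p of 0.684 or more. *Ighg2c*, the counterpart in this strain of the *Ighg2a* gene of others, had 86.3% and 87.8% in B and 90.0% and 90.8% in T (-3.40 points, adjusted p 0.442). Most of that gap lay in exon 4, with 66.97% and 72.4% in B against 84.8% and 85.6% in T over 7 CpGs. In the flanks of these genes the mean difference furthest from 0 was -6.78 points, after the end of *Ighg1* (70.5% and 75.2% in B against 79.4% and 79.9% in T, adjusted p 0.0545). After the end of *Igha*, the side of the locus that holds its downstream regulatory region, levels were 87.0% and 86.1% in B against 92.9% and 93.0% in T. That difference of -6.42 points had an adjusted p of 0.0198, and the flank after *Ighg2b* differed by -6.63 points (adjusted p 0.0403), both under the 20 points required. After the end of *Ighe* the sign was opposite, at 94.3% and 93.7% in B against 91.2% and 92.2% in T (adjusted p 0.159).

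**Figure D2:**
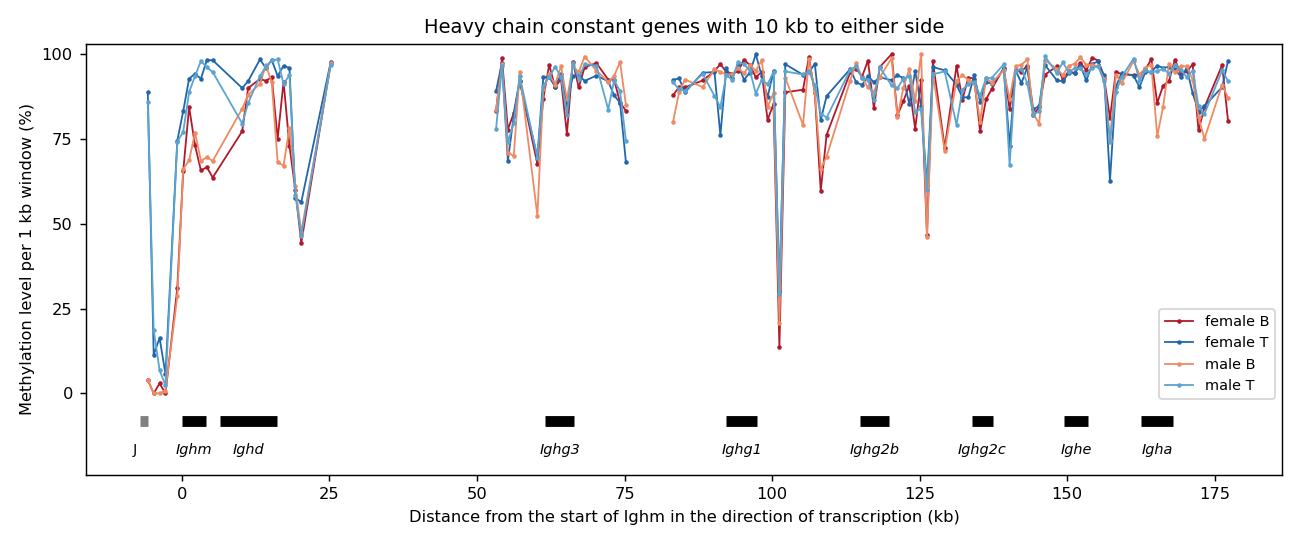
Methylation level (%) of 1 kb windows along the 8 heavy chain genes with 10 kb to either side, against the distance in kb from the start of Ighm in the direction of transcription; each line is 1 file, black bars are gene bodies and the grey bar spans the J segments. B and T files part over the J segments and Ighm and lie close to each other over Ighg3 to Igha, where 1 of the 7 called windows of the locus lies.

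*Igkc* had lower levels in B cells over its single exon and on both sides. The body (chr6:70726435-70726966, plus strand) was at 63.0%, 94.7%, 74.2% and 95.7%, over 9 CpGs and 81 reads in the file with fewest. The difference was 31.7 points in females and 21.5 in males, and the adjusted p of 0.0616 (mean -26.6 points) missed the threshold over all gene bodies. Its 95% Wilson interval in female B cells ran from 52.1% to 72.7%, while other member regions had intervals of at most 9.35 points. Before the start, levels were 52.1% and 55.3% in B against 88.6% and 90.6% in T, a called difference of -35.9 points (adjusted p 0.000297). After the end, 66.9% and 66.5% stood against 87.3% and 84.4% (-19.1 points, adjusted p 0.0045), again just short of the size required. Between the last kappa J segment and *Igkc*, all 24 CpGs had both B files below both T files, and the levels were 31.0% and 40.1% in B against 85.9% and 90.2% in T. Over the J segments all 15 CpGs listed in every file did so, at 55.8% and 65.4% against 93.5% and 96.4%. Both T files listed 20 CpGs there, the female B file 18 and the male B file 17.

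**Figure D3:**
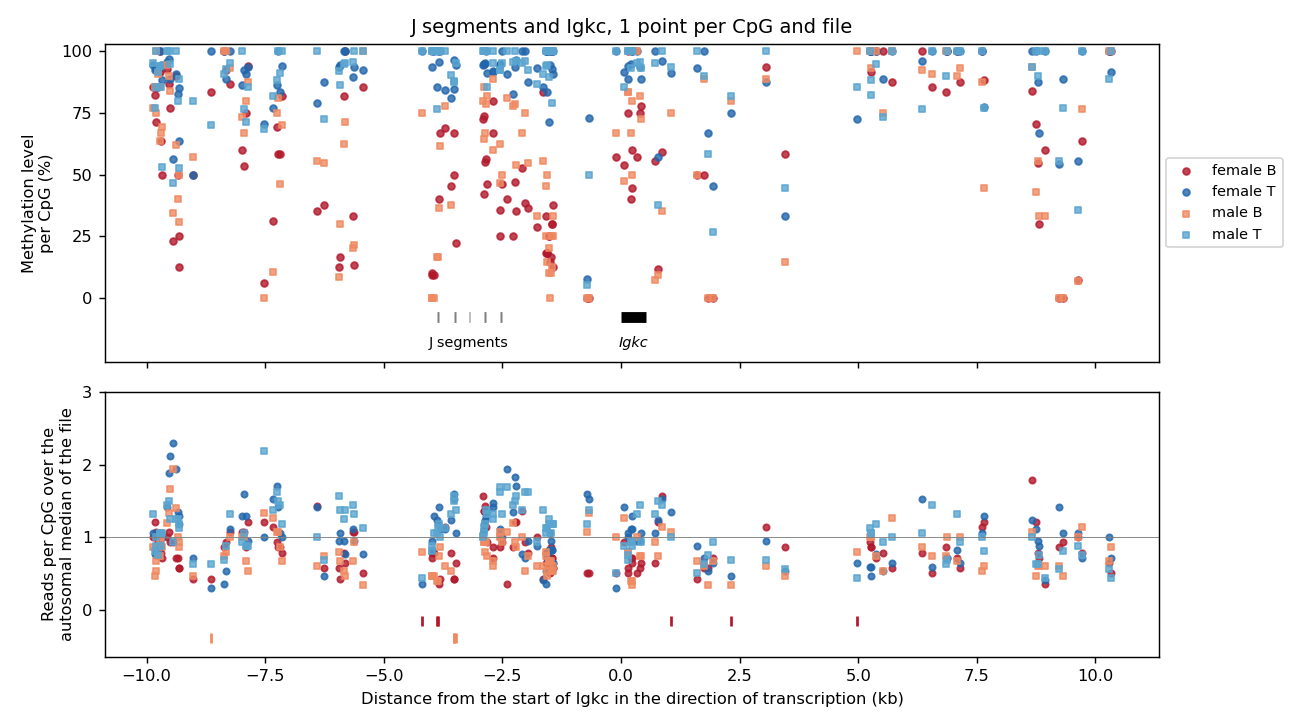
Single CpGs around Igkc, with the distance in kb from its start on the x axis; the upper panel gives the methylation level (%) and the lower panel the reads per CpG over the autosomal median of the file, with ticks under 0 for CpGs that a file does not list. B points (red, orange) fall below T points at most CpGs over the J segments and up to the gene, where the stretch between them had 31.0% and 40.1% in B and 85.9% and 90.2% in T.

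Windows of 1 kb placed the differences within these regions. Of 134 member windows tested, 17 were called, and all were lower in B cells in both sexes. Across the genome 0.913% of 2018320 windows were called lower and 1.16% higher. On chromosome 6, 10 of 14 windows were called, and on chromosome 12, 7 of 120. The median difference was -33.7 points over the kappa windows and -0.53 over the heavy chain windows, against 0.05 over all windows. The highest adjusted p of the 17 was 0.00032, but the model gave each window the same dispersion, so that small p-values overstate the certainty, and with a dispersion prior taken from all windows none of the 134 was called, nor any of the 2018320 in the genome.

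The largest difference lay over *Ighj4*, the last heavy chain J segment (window starting at 113428001). Its 6 CpGs were at 4.00%, 88.9%, 3.95% and 85.9%, over 75, 144, 76 and 142 reads. All 6 CpGs separated the cell types, with B files at or below 15.4% and T files at or above 50%. Ranked by whichever sex differed less, the next 3 windows were kappa windows. The window of *Igkj1* and *Igkj2* (70722001) had 35.7% and 35.5% in B against 93.3% and 98.3% in T, over the 7 of its 13 CpGs listed in every file. The window at 70720001, before the J segments, had 40.2% and 37.0% against 91.5% and 93.1%. The window at 70724001, after *Igkj5*, had 32.2% and 44.8% against 93.1% and 95.8% over 21 CpGs. The fifth was the window just before *Ighm* (113423001), with 31.0% and 28.6% in B and 74.5% and 74.2% in T.

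The other 12 called windows had mean differences of -50.2 to -23.1 points, and 7 of them lay in the kappa region. The smallest was the called window that stood alone among the genes of the switched classes, which starts at 113293001 in the 10 kb before *Ighg2c* and was singled out after its values were seen. It had 72.4% and 71.5% in B against 95.2% and 94.9% in T over 10 CpGs. A window downstream of *Igkc*, at 70735001, also singled out after its values were seen, had 48.4% and 43.9% against 83.3% and 88.3%, on the side where an enhancer of the kappa locus lies.

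Between the J segments and *Ighm*, the locus held a stretch of low methylation in both cell types. The 3 windows from 113425001 to 113428000, which were chosen for staying under 30% in every file, had 0.877%, 10.7%, 0.385% and 7.71% over 20 CpGs. The intron that holds the heavy chain enhancer and the *Ighm* switch region spans this stretch. B files were lower here too, and 9 of the 20 CpGs had both B files below both T files. On either side the cell types parted: from the low stretch to *Ighj4* the levels were 4.65% and 8.57% in B against 95.8% and 94.9% in T over 3 CpGs, and from the low stretch to *Ighm* they were 31.4% and 27.7% against 67.1% and 67.8% over 14 CpGs. Only 2 more member windows were under 60% in every file. The window at 113321001, after the end of *Ighg1*, had 13.6%, 30.2%, 20.7% and 29.2%. The window at 113402001, after the end of *Ighd*, had 44.3%, 56.4%, 47.5% and 46.5%.

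**Figure D4:**
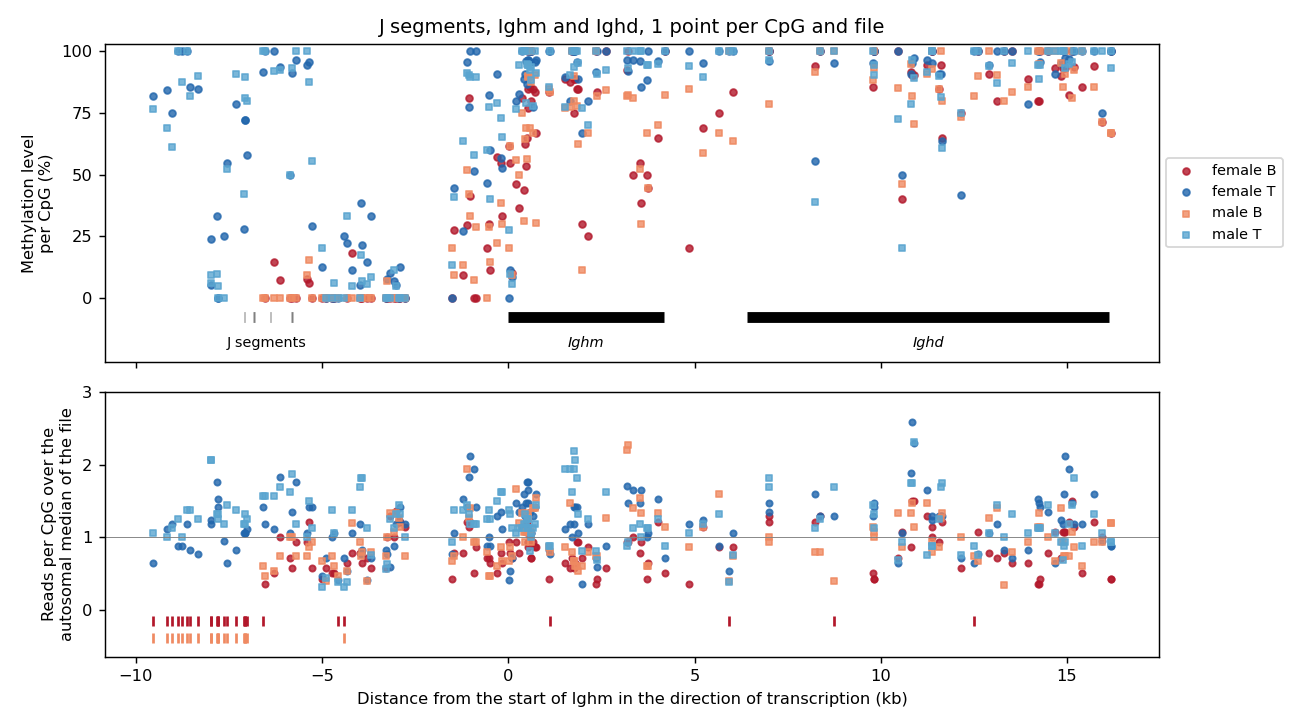
Single CpGs from the 10 kb before Ighm to the end of Ighd, laid out as for Igkc (level in %, reads over the autosomal median, ticks for unlisted CpGs; x axis in kb from the start of Ighm). Upstream of the first J segment only T points are drawn, and pairs of red and orange ticks mark CpGs that no B file lists, 3 in that segment and 16 beyond it.

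Switch sequence was located by the 1 kb stretch with most AGCT in the 10 kb before each gene. The stretch before *Ighm* (chr12:113424431-113425430) held 137 copies, and the same repeat fell within 10 kb of *Ighd*, which has no classical switch region of its own. The stretches before *Igha*, *Ighe*, *Ighg3*, *Ighg2c*, *Ighg2b* and *Ighg1* held 54, 45, 42, 35, 33 and 30 copies. Over 53843 genes the median of this maximum was 10, and 0.0669% of genes reached the 30 copies of *Ighg1*. The stretch before *Igkc* held 10, a number that 60.4% of genes reached. Switch repeats held few CpGs. The stretch before *Ighm*, shared with *Ighd*, held none and those of the other heavy chain genes 1 to 3 each, so their levels rest on few reads.

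At the 3 CpGs of the *Ighg1* switch stretch the levels were 90.3%, 90.6%, 89.7% and 95.7%. The 3 CpGs of *Ighg2c* had 97.5%, 95%, 96.3% and 95.8%. The 2 CpGs of *Ighg2b* had 93.9%, 89.7%, 96.6% and 96.6%, and the 2 of *Ighe* had 100%, 92.4%, 95.2% and 94.3%. The single CpG of *Igha* was at 100%, 86.7%, 95% and 90.0%. The widest gap among these 5 stretches was the 13.3 points of *Igha* in females, over 20 and 30 reads. The single CpG of *Ighg3* had 83.3% and 92.3% in B against 75% and 53.3% in T. Its gap in males, 39.0 points, was wider than any of those, over 13 B and 15 T reads. In females it rested on 12 and 20 reads.

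By coverage no constant gene passed the test between B and T cells, and *Ighm*, *Ighd* and *Igkc* had the ratios furthest below 0. Reads per CpG over the autosomal median were 0.82 and 1.08 in the female and male B files at *Ighm*, against 1.23 and 1.26 in T. At *Ighd* they were 0.94 and 1.00 against 1.33 and 1.22, and at *Igkc* 0.64 and 0.72 against 1.10 and 0.97. The log2 ratio of B over T (edgeR) was -0.40 for *Ighm* (adjusted p 0.209), -0.39 for *Ighd* (adjusted p 0.202) and -0.61 for *Igkc* (adjusted p 0.334). No member body was called, where 0.388% of 43284 bodies were called in either direction. *Ighm*, *Ighd* and *Igkc* had an unadjusted p under 0.05, and neither limma nor DESeq2 called any member. The share of all bodies with such a p is not given, so these 3 cannot be set against it. Without the male B file *Ighm* was called, at -0.61 (adjusted p 0.00862), but without the female B file its ratio was -0.20 (adjusted p 1) and with a minimum of 10 reads -0.22 (adjusted p 0.815). The other members had log2 ratios from -0.15 to 0.00. Over 18213 autosomal windows called lower in B by methylation the median log2 ratio of coverage was -0.06, over 23193 called higher it was -0.02, and over all windows 0.01. In the 2126 windows lower by 50 points or more it was -0.05. The part of methylation calls in the member coverage was not tested.

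From the first to the last heavy chain J segment, the female and male B files listed 5 and 6 of 10 CpGs. Neither listed any of the 16 CpGs from there to the limit of 10 kb. From *Ighj4* to the limit of 10 kb before *Ighm* (chr12:113428514-113432730) both T files listed all 26 CpGs, while the female B file listed 5 and the male B file 6. The deposited tables leave out CpGs under 5 reads, so with 4 reads given to each unlisted CpG, coverage was at most 0.35 and 0.37 of the autosomal median in B, against 1.12 and 1.39 in T. Of these 26 CpGs, 20 (76.9%) were in no B file, where 0.445% of the autosomal CpGs listed by both T files were in no B file. No CpG of the 9 members and their flanks was listed in both B files and in no T file. That was also rare elsewhere, at 0.243% of the autosomal CpGs listed by both B files. Between *Ighj4* and *Ighm* 1 of 39 CpGs was missing from both B files, and over the kappa J segments none of 20. Further along the heavy chain locus, 3 of 49 were missing after the end of *Igha* and 1 of 52 before *Ighg2b*. Why these CpGs were missing from the B files was not tested, and the number of DNA copies was not measured. Depth in pooled cells also could not tell fewer copies in every cell from a loss in a share of cells.

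At most of the CpGs absent from the B files, the T files were methylated. Of the 20 CpGs, 13 were above 50% in both T files and 7 below. The medians were 72.2% and 72.6% in female and male T cells. The 7 low CpGs lay 7.09 to 7.98 kb before *Ighm*, at *Ighj1* and beyond it.

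By windows, none of the 134 tested for coverage was called, where 0.0283% of 1950708 were. Of these 134, 25 had an unadjusted p under 0.05, 23 of them lower in B, and limma called 0. The share of all windows with such a p is not given, so the 25 cannot be set against it. This test needs CpGs listed in all files and so could not see the stretch upstream of *Ighj4*. When unlisted CpGs counted as 4 reads, a setting chosen after seeing the data, 5 of 141 windows were called, all lower in B, where 0.0349% of 2043147 windows were. In 4 of the 5 the fill makes the log2 ratio an upper limit for B. In the windows at 113430001 and 113431001 no B file lists a CpG, so their ratios of -2.28 and -1.97 set the assumed 4 reads against the T files, and their calls follow from that assumption. The window at 113429001 had -1.83, with 2 and 3 of 7 CpGs listed in B, that of *Igkj1* and *Igkj2* had -1.08, while the window at 113420001 in *Ighm*, which lists all its 10 CpGs in every file, had the plain ratio of -0.82 (adjusted p 0.0492, and 0.0887 before the fill).

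**Figure D5:**
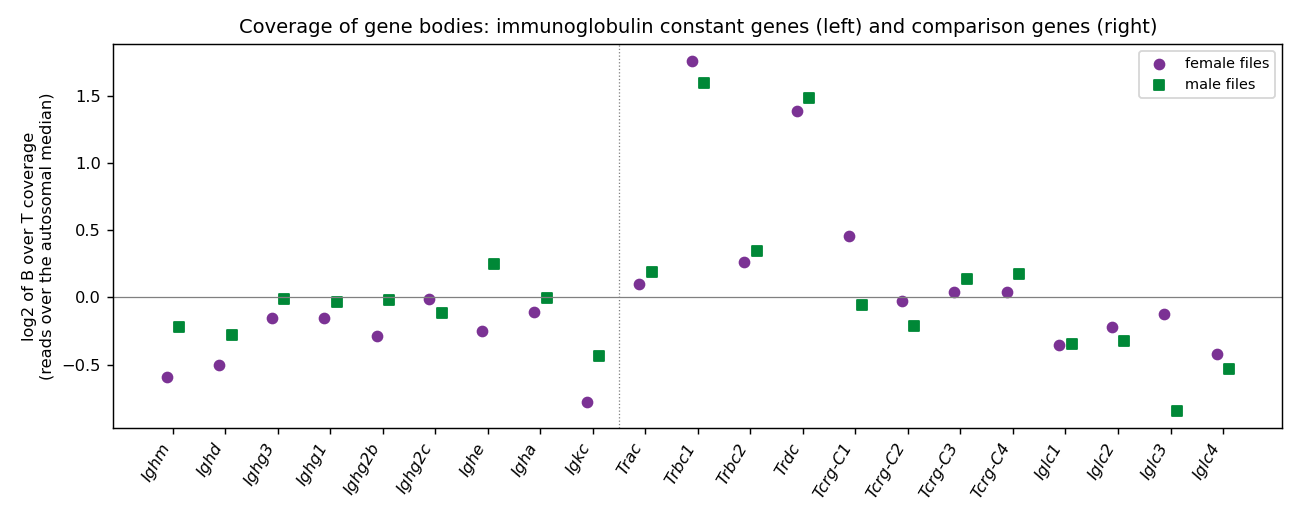
Log2 ratio of B over T coverage of gene bodies (reads per CpG over the autosomal median) for the 9 constant genes and 12 comparison genes, with 1 point for the female pair of files and 1 for the male pair. All constant genes except Ighe sit below 0 in both sexes, with Ighm, Ighd and Igkc lowest on average, and so do the 4 lambda genes, while Trbc1 and Trdc sit above 1 in both.

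T cell receptor constant genes gave the reverse comparison. Of 8, 4 bodies were called higher in B cells (*Trac*, *Trbc1*, *Trbc2* and *Tcrg-C2*) and 0 lower, with 6 called higher in the flank before the start. Over all genes 0.442% of bodies and 0.372% of such flanks were called higher. *Trac*, the alpha constant gene, was at 84.3% and 80.9% in B against 13.3% and 19.3% in T. *Trbc1*, a beta constant gene, was at 98.9% and 93.2% against 0% and 0% over 5 CpGs. By coverage, *Trdc*, the delta constant gene, had 1.21 and 1.17 of the median in B and 0.46 and 0.42 in T (log2 ratio 1.43, adjusted p 0.000186), and *Trbc1* had 1.27 and 1.17 against 0.38 and 0.39 (log2 ratio 1.67, adjusted p 0.00316). These ratios rest on the 16 of 64 CpGs of *Trdc* and 5 of 14 of *Trbc1* that reached 5 reads in every file, a filter that low T coverage itself sets. *Trac*, by contrast, had a log2 ratio of 0.15 (adjusted p 0.802). These loci are rearranged in T cells by the same recombination, and it deletes the delta gene when alpha is joined.

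Of the lambda constant genes, the alternative light chain, no body was called, where 0.442% of all bodies were called higher and 0.218% lower. *Iglc1* had 52.9% and 46.4% in B against 82.3% and 88.2% in T, and *Iglc2* had 54.8% and 42.4% against 81.7% and 72.5%. Their adjusted p were 0.121 and 0.0733. *Iglc4* differed by 5.42 points in the other direction over 3 CpGs, and *Iglc3* had too few CpGs to be tested. By coverage the log2 ratios of *Iglc1*, *Iglc2* and *Iglc4* were -0.35, -0.27 and -0.48, with adjusted p of 0.697 to 0.807. The flank after *Iglc3* was called, at -23.8 points, but it contains the body of *Iglc1*.

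Partner genes of the antibody were compared as a list. Of 8, 5 bodies were called lower in B cells, where 0.218% of all bodies were, and 0 higher: *Cd79a* (-58.1 points), *Cd79b* (-34.8), *Vpreb3* (-32.3), *Igll1* (-44.6) and *Vpreb1* (-26.3). *Cd79a* and *Cd79b* encode the signalling chains of the surface receptor, and the last 3 belong to or resemble the surrogate light chain of precursor B cells. *Jchain*, which links IgM and IgA into polymers in plasma cells, was at 89.6% and 89.8% in B and at 90.1% and 90.6% in T. *Pigr*, the receptor that carries polymers across epithelia, differed by -7.78 points (adjusted p 0.0235), and *Fcer2a*, the low-affinity IgE receptor, by -6.61 (adjusted p 0.0524). The median over the list was -29.3 points.

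Of 21 genes of class switching, 0 bodies and 0 flanks were called. Over all genes, 0.442% of bodies were called higher in B and 0.218% lower. Flanks before the start were called at 0.372% and 0.148%, and those after the end at 0.392% and 0.163%. With shares this low, 0 calls among 21 genes do not set the list apart from other genes. The median body difference over the 21 genes was -0.00 points. The largest was at *Lig4*, a DNA ligase of end joining, with 54.5% and 52.2% in B against 44.9% and 38.8% in T (adjusted p 0.0363). *Apex1*, an endonuclease, differed by -4.97 points (-0.33 in females and -9.60 in males, adjusted p 0.525). *Shld1*, of the shieldin complex, differed by 3.94 points, with an adjusted p of 0.0264.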

How the data were processed

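Whole-genome bisulfite sequencing covered 8 samples in 4 groups of 2, with 1 table per group. The authors deposited, for each CpG with 5 or more reads, the methylation level as a fraction, beside the count of reads that covered it. Both strands were merged, on mm10 (GRCm38). The submitters' processing notes name Trim Galore, FastQC and Bismark 0.13.1. Removal of duplicates and the conversion rate are not given in the sources used here. Per the labels, part of each sample was oxidized before conversion, and the files carry the names of plain bisulfite libraries.

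The number of methylated reads was taken as level times coverage, rounded. CpGs with 5 or more reads in all 4 files were pooled over gene bodies, 10 kb flanks and 1 kb windows with at least 3 such CpGs. A logistic fit with quasi-binomial errors, cell type and sex left 1 residual degree of freedom. Its dispersion was squeezed with limma 3.58.1 in R 4.3.3, with a prior from features that had 5 or more expected reads of both kinds in every file, and p-values were adjusted by Benjamini-Hochberg over all features of the autosomes and X. A call required an adjusted p under 0.05 together with 20 points of mean difference. Coverage was summed and tested with edgeR 4.0.16 (glmQLFit and glmQLFTest, legacy mode, common dispersion from 20000 evenly spaced features), scaled by the autosomal median and adjusted over autosomal features. DESeq2 1.42.0 and limma were alternatives. Both procedures were tested on simulated data.

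With 2 files against 2, an exact two-sided permutation test of a single value cannot go below 0.333, and none was used. The p-values of bodies and flanks, and those by coverage, weigh the spread between files, pooled with that of other features. That spread may be technical. For windows by methylation the same dispersion served every window, so those p-values do not measure the spread between files at a window. Wilson intervals are at 95% and cover counting error only, and a read that spans several CpGs is counted at each.

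All 9 members were described. Of called windows, the 5 with the largest of the smaller sex difference were named, with 2 more chosen after their values were seen, and of the gene lists those called and up to 4 more by size. A gene of the lists and a marker list are not reported here. The members and lists were chosen with earlier results of these data known. The gamma receptor genes carry the names *Tcrg-C1* to *Tcrg-C4* in the annotation. Sequences came from the GRCm38.p6 reference of RefSeq, and both strands read AGCT alike.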

Additional observations from a re-analysis of the deposited data

Results flagged for a closer look

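At 6 of the 27 member regions the female and male files pointed in opposite directions in methylation or in coverage. With 1 pair of files a sex, these differences were not tested. In methylation, B minus T in females less that in males was -0.801 points for the body of *Ighg3* and 2.16 points for the body of *Ighg2b*. In coverage, the female log2 ratio of B over T less the male ratio was -0.501 for the body of *Ighe*, 0.0554 after the end of *Ighg2b*, -0.099 before the start of *Ighg2c* and -0.211 after the end of *Igha*. None of these regions was called different between B and T cells.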

How the results depend on the processing

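The calls before the starts of *Ighm*, *Ighd* and *Igkc* held in every setting that kept all 4 files. The threshold of 10 points reuses the main fit and could not remove them. Over all 10 settings, leave-one-out and main included, differences were -40.0 to -36.5 points (*Ighm*), -24.6 to -22.1 (*Ighd*) and -37.5 to -30.9 (*Igkc*). Leaving out a file leaves 1 file in that cell type and drops the term for sex, so the lone file is assumed to vary like the pair of the other. Calls of flanks numbered 3 to 4 with 1 file left out. Called member windows (17) became 30 with a threshold of 10 points (29 of them lower in B), 8 of 104 tested with a minimum of 10 reads (7 of the 17 could be tested there, and all 7 were called), 27 of 173 with windows of 500 bp and 0 with the prior from all features, which called no window or gene body anywhere. They ranged from 16 to 20 with 1 file left out. All 14 called by limma were among the 17. *Ighm* was the 1 body called with the threshold of 10 points and with a minimum of 10 reads (-22.4 points). By coverage, *Ighm* was the 1 body called without the male B file (range over files left out 0 to 1, its log2 ratio -0.61 to -0.20). Windows by coverage stayed at 0 with each file left out and became 5 when unlisted CpGs counted as 4 reads. Signs near 0 changed: the methylation difference was -0.0213 points for *Ighg3* with a minimum of 10 reads and -0.147 points for *Ighg2b* as an unweighted mean over CpGs. That mean was 1.03 points for *Ighg3*, -3.98 for *Ighg2c* and -1.93 for *Igha*. Coverage of *Ighe* was -0.00178 when scaled by the autosomal mean.

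With 1 file left out, differences in points ranged from -20.9 to -17.8 for *Ighm*, -0.645 to 0.848 for *Ighg3*, -1.04 to 1.40 for *Ighg2b* and -0.204 to 2.05 for *Ighe*. For *Ighd* they ranged from -2.73 to -0.180, for *Ighg1* from 0.391 to 1.54 and for *Igkc* from -32.2 to -21.0. Log2 coverage ranged from -0.21 to 0.0176 for *Ighg1*, -0.34 to 0.0310 for *Ighg2b*, -0.15 to 0.14 for *Ighe* and -0.13 to 0.0126 for *Igha*. The body of *Igkc* kept under 3 CpGs with a minimum of 10 reads and was not tested there. The cause of these changes was not tested. No paired analysis was possible because the replicate numbers in the labels differ between all groups and each group has 1 file; the term for sex already sets the B and T files of a sex side by side. Depth limits small stretches most, such as exons with 1 or 2 CpGs and the switch stretches, where each level rests on few reads.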
